A study of Rattus norvegicus with 28 samples.

Results

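The comparison of WT INS-1 cells exposed to forskolin (FSK) for 8 h with WT cells left untreated (CON) rests on 4 of the 28 RNA-seq libraries of the series, 2 in each group. INS-1 cells come from a rat insulinoma and secrete insulin, and the WT cells carry no change in Med14, the Mediator subunit that the study mutated in its other cells. All cells were moved to serum-free medium, and the treated cells then received 10 µM FSK. CON cells received no agent. A further 6 libraries, 3 pairs, place the 8 h values in time and against a receptor agonist. They cover 1 h and 16 h of 10 µM FSK and 8 h of 10 nM exendin-4 (Ex-4). All 28 libraries entered the estimate of spread, the filter on gene level and the choice of transcript. The sources used here do not say how long CON cells stayed in serum-free medium. If that was less than 8 h, effects of FSK and of time in this medium cannot be told apart in any contrast with CON. Nor do the sources say whether the libraries of a group came from separate cultures. The p-values thus measure only the spread between libraries of the same group. That spread was pooled over the 14 groups of the series, Med14-mutated cells included. INS-1 is a tumour line with no neighbouring islet cells, and it was used as a single line.

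FSK switches on the transmembrane adenylyl cyclases directly, and the cyclic AMP (cAMP) they make activates protein kinase A (PKA). PKA phosphorylates CREB, which binds cAMP response elements (CREs) near its target genes, and the same kinase lets the CRTC coactivators enter the nucleus. In beta cells this pathway lies downstream of the GLP-1 receptor, the target of Ex-4, and it strengthens insulin secretion when glucose is high. Early CREB targets include transcription factors and inhibitors of the pathway itself, so genes measured hours later include both direct targets and genes downstream of those factors.

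The 4 libraries held 42551133 to 51097557 fragments, and 9879 to 10249 genes reached a level of 1 TPM (transcript abundance per length, scaled to the sum of the library) in each. Spike-in (ERCC) RNA, of which an equal amount went into each 1 µg of RNA, took 0.8637 to 0.9528% of fragments, with no separation between CON and 8 h FSK. The labelled beta cell origin was checked against markers fixed for 9 cell types. The summed TPM of the 13 beta cell markers found in the table was 45986 and 46837 in CON and 80147 and 82856 at 8 h FSK. Ins1 gave the larger part of these sums, and the markers did not rise as a set. By the call given below, 2 of the 12 tested were higher at 8 h FSK and 4 lower. Of 7 alpha cell markers, Irx2 was listed at 0 TPM in all 4 libraries and Irx1 at no more than 0.015, although Gcg and Gc were abundant, and the list summed to 1309 to 2084 TPM. The delta, PP and epsilon, leukocyte, duct, fibroblast and endothelial lists each summed to less than 5 TPM in every library, with Col3a1 and Spp1 at 0 and Ptprc at no more than 0.004. A listed value near 0 need not mean absence. The glycolysis gene Tpi1 and the ribosomal protein gene Rps19 also averaged below 1 TPM over the 28 libraries. The 10 acinar markers summed to 28.7 to 32.0 TPM in CON and to 101 to 105 TPM at 8 h FSK. Bhlha15 gave the larger part of that sum, at 14.8 and 16.3 TPM in CON and 65.6 and 65.8 TPM at 8 h FSK, while the enzymes Prss1, Pnlip and Cela2a were at 0 TPM. Its part in the results was not tested.

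After 8 h of FSK, 901 of 10275 genes tested were higher than in CON and 3579 were lower, by the call used throughout, a fold change above 1.5 together with an adjusted p below 0.05 (limma on log2(TPM + 1), Benjamini-Hochberg over all genes). These are 8.77% and 34.8% of the genes, the shares beside which every count of a list against CON below is to be read. The median gene changed by −0.34 on this log2 scale. The genes called higher, chosen by their rise in these libraries, summed to less TPM than those called lower in CON and to more at 8 h FSK, which is a description and not a test. Their summed TPM went from 110206 and 112012 in CON to 231252 and 238184 at 8 h FSK, while that of the genes called lower went from 190252 and 193700 to 90392 and 92789. Insulin itself was part of this, with Ins1 at 3.37 and 3.45% of all TPM in CON and 6.56 and 6.78% at 8 h FSK.

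The balance of rises and falls depended on the scale. Scaling each library on its ERCC counts gave 821 higher (7.99%) and 3828 lower (37.3%), with a median change of −0.38. Centring each library on its median gene gave 1930 higher (18.8%) and 1848 lower (18%), with a median change of 0.05. In all 3 scalings 821 genes were called higher and 1848 lower. These equal the higher count with ERCC scaling and the lower count after centring, the strictest scaling for each direction. A call in all 3 is thus a call in the strictest one and not 3 separate checks. Falls were more frequent among genes of low level: among genes of 1 to 7.49 TPM, the bottom of 5 equal bins, 45.6% were called lower and the median change was −0.51, whereas in the top bin (from 84.9 TPM) 17.3% were called lower and the median change was −0.09. In bulk RNA, less RNA per cell and fewer cells that make a transcript cannot be told apart.

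**Figure D1:**
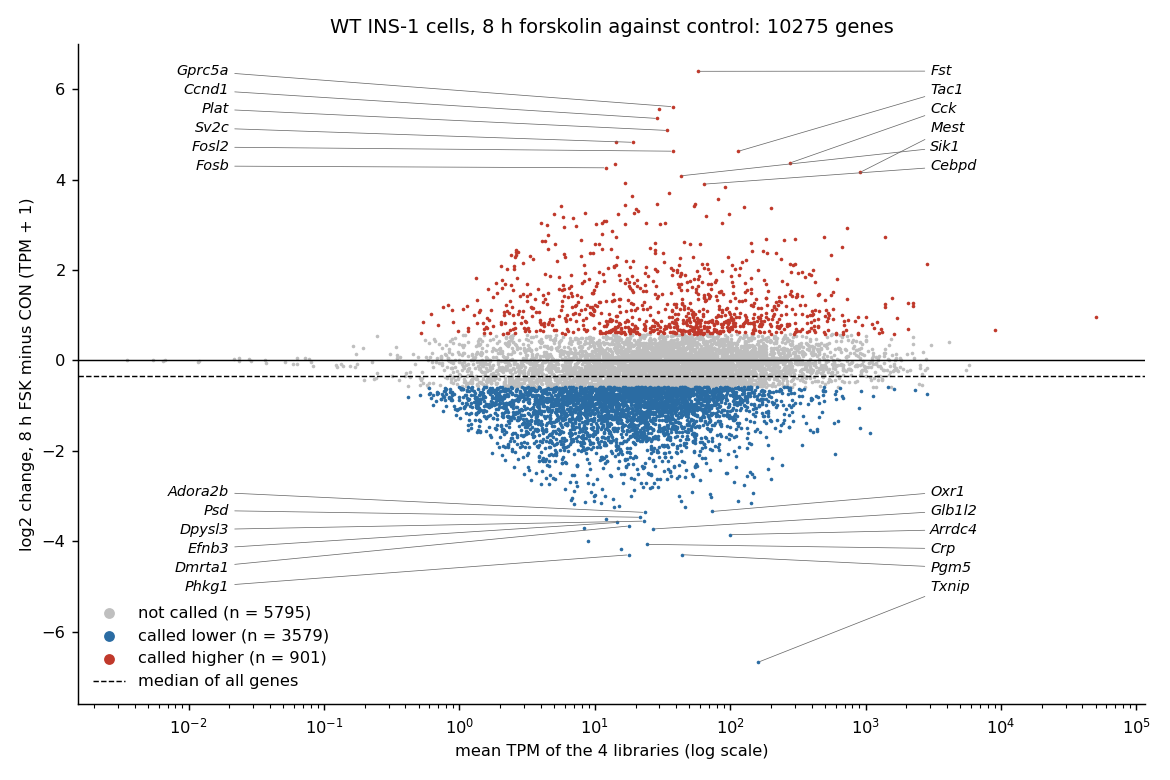
Log2 change between 8 h FSK and CON on the log2(TPM + 1) scale (vertical axis) against the mean TPM of the 4 libraries (horizontal axis, log scale), 1 point for each of 10275 genes. Red points are the 901 genes called higher and blue points the 3579 called lower, the dashed line is the median change of −0.34, and the 12 largest rises and falls by the naming rule carry their symbols.

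The 12 largest rises by the naming rule were of genes with varied roles. Fst, the secreted activin antagonist follistatin (rn6, chr2:46537589-46544452), stood at 0.289 and 0.458 TPM in CON and at 108 and 122 TPM at 8 h FSK, which is a rise of 6.4 ± 0.09 (SE) in log2 units with limma (adjusted p = 1.4e-26). Ccnd1, cyclin D1 (rn6, chr1:218090750-218100272), went from 0.360 and 0.5 TPM to 57.1 and 57.6 TPM, a change of 5.35 ± 0.08. Both genes were close to absent in CON and moderately abundant after treatment. Plat, the tissue plasminogen activator, rose from 0.955 and 1.08 to 63.7 and 71.8 TPM (5.09 ± 0.09), and the orphan receptor gene Gprc5a rose from 0.493 and 0.597 to 70.9 and 78.5 TPM (5.61 ± 0.09). Sv2c, a vesicle glycoprotein, rose by 4.83 ± 0.15 and Cebpd, a bZIP transcription factor, by 3.90 ± 0.08. Mest, an imprinted gene of the hydrolase fold, was already at 94.9 and 97.0 TPM in CON and reached 1697 and 1779 TPM (4.17 ± 0.05), which made it the most abundant of the 12. The other rises named by the rule were Fosl2, Fosb, Sik1, Tac1 and Cck, described with their groups.

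Txnip showed the largest fall of any gene the rule named. It encodes the thioredoxin-interacting protein, an arrestin-fold protein that restrains glucose uptake and is strongly induced by glucose (rn6, chr2:198683168-198686968). Its level was 312 and 329 TPM in CON and 1.99 and 2.32 TPM at 8 h FSK, so Txnip changed by −6.67 ± 0.08 in log2 units (adjusted p = 4.4e-27, limma) and a 149-fold lower mean. Its relative Arrdc4 went from 180 and 197 to 10.9 and 13.4 TPM (−3.85 ± 0.07). Phkg1, a catalytic subunit of phosphorylase kinase, went from 34.5 and 35.0 to 0.799 and 0.831 TPM (−4.30 ± 0.09). Each of these 3 genes was lower in both treated libraries than in both CON libraries by more than 10-fold. The remaining falls were Pgm5, a phosphoglucomutase relative (−4.30 ± 0.09), Crp, C-reactive protein (−4.07 ± 0.12), Glb1l2 (−3.73 ± 0.07), Dmrta1 (−3.66 ± 0.07), the ephrin gene Efnb3 (−3.58 ± 0.08), Dpysl3, a cytoskeletal protein of growing neurites (−3.55 ± 0.07), Psd (−3.47 ± 0.07), the adenosine receptor gene Adora2b (−3.36 ± 0.08) and Oxr1, an oxidation resistance gene (−3.34 ± 0.07). All 12 had adjusted p-values of at most 1.5e-20 (limma), which describe genes chosen by this same contrast. The rule itself admits only genes called under each of the 3 scalings.

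Genes for the production and reading of cAMP came next. Of 23 genes tested, 1 rose and 9 fell, shares near or below the 8.77% and 34.8% of all genes, with a median change of −0.55. After centring 3 rose, and 8 of the falls were also called after centring on the median gene. Prkacb, a catalytic subunit of PKA, fell from 94.7 and 108 to 21.6 and 21.8 TPM (−2.17 ± 0.06), while Prkaca, the other main catalytic subunit, was at 217 and 218 TPM in CON and 194 and 199 TPM at 8 h FSK and was not called. The adenylyl cyclase genes Adcy6 (−1.75 ± 0.06) and Adcy8 (−1.29 ± 0.07) fell, as did Rapgef4, the cAMP-gated exchange factor Epac2 (−1.57 ± 0.07), and Gcgr, the glucagon receptor (−1.46 ± 0.08). Glp1r, the receptor for Ex-4, stood at 89.8 and 95.4 TPM in CON and at 74.9 and 77.7 TPM after FSK, a difference of −0.28 ± 0.04 that did not reach the fold minimum. The only called rise was Prkar1a, a regulatory subunit that inhibits PKA, from 476 and 484 to 703 and 739 TPM (0.59 ± 0.04). It sat just past the fold minimum and was not called with ERCC scaling, nor without replicate 2 of either group.

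Targets of CREB stayed high at 8 h. Of 19 tested genes of this list, which holds CREB targets and feedback genes that the field associates with cAMP, 16 rose and 2 fell (median change 1.75, beside −0.34 over all genes). Sik1, a kinase that sends the CRTC coactivators back out of the nucleus, rose from 3.91 and 3.93 to 82.0 and 82.9 TPM (4.08 ± 0.10). Crem, whose internal promoters give the repressor ICER, rose from 10.6 and 11.7 to 171 and 172 TPM (3.83 ± 0.08). Rgs2, which dampens G protein signalling, rose by 3.42 ± 0.08, and Pde10a, a phosphodiesterase that breaks down cAMP, rose from 12.9 and 14.6 to 85.8 and 88.6 TPM (2.58 ± 0.09). These 4 genes act against the pathway at different steps. The orphan nuclear receptor gene Nr4a1 rose by 3.25 ± 0.08 and Ppargc1a, the coactivator PGC-1α, by 3.27 ± 0.17. The 2 falls were Pkia, an inhibitor peptide of PKA (−0.65 ± 0.07), and Fgf18 (−0.94 ± 0.12), and neither was called after centring on the median gene.

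The AP-1 family, bZIP factors that dimerise as Fos and Jun proteins, split by member. Of 10 genes tested 8 rose, 1 fell and 1 did not pass (median change 2.30). Fosl1 was at 0 and 0.104 TPM in CON and at 28.7 and 28.8 TPM at 8 h FSK (4.82 ± 0.11). Fosl2 rose from 1.95 and 2.05 to 71.1 and 75.4 TPM (4.63 ± 0.08), Fosb from 0.283 and 0.306 to 23.5 and 24.2 TPM (4.26 ± 0.08), and Fos from 1.91 and 2.16 to 26.9 and 28.6 TPM (3.24 ± 0.10). The Fos-side genes rose from low levels, and the related bZIP genes Maff (2.46 ± 0.09) and Atf3 (1.95 ± 0.10) rose too. On the Jun side Junb rose by 2.14 ± 0.08 and Jund by 0.82 ± 0.08, but Jun was at 8.18 and 8.25 TPM in CON and 7.86 and 8.5 TPM at 8 h FSK, with overlapping groups and a difference of −0.01 ± 0.06. Batf3 fell from 25.8 and 28.6 to 11.7 and 13.8 TPM (−1.04 ± 0.09).

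Promoters were read from RefSeq (build GRCr8, 250 bases before to 50 after each start) for 7997 of the 10275 genes, giving 8407 promoters. The full CRE TGACGTCA, searched on both strands, was in 3.38% of them, in 5.41% of promoters of genes called higher, in 2.13% of those called lower and in 3.83% of those not called. The half-site TGACG, which the full element contains, was in 33.4%, 43%, 25.5% and 36.6% of the same sets. Among the CREB list 4 of 23 promoters held the full element and 12 the half-site. The AP-1 motif TGANTCA was in 4.63% of all promoters, in 7.57% of those called higher and in 4.06% of those called lower. The ATF4 motif TGATGNAA was in 2.02%, 3.78% and 1.89%. The letters CACGNG, a wider pattern that includes the E-box CACGTG, were in 41.3%, 41.9% and 40.2%. The sterol motif CACCCCAC was in 2.27%, 2.16% and 2.34%. These shares describe letters in a window and were not tested, and they say nothing on binding.

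The promoters below belong to CREB list members that rose (Crem, Sik1 and Nr4a1), a granule cargo gene (Vgf) and a neuropeptide gene (Cartpt). Each gene was picked by hand together with the motif to mark, and only promoters that hold this motif are shown. They are therefore examples and do not stand for the genes that rose. Crem, Sik1 and Nr4a1 follow the naming rule, while Vgf and Cartpt were chosen after their values were seen. Capitals mark the full CRE in Crem, Vgf and Cartpt and the half-site, here on the reverse strand as CGTCA, in Sik1 and Nr4a1. All are written 5′ to 3′ on the strand of the gene, with GRCr8 coordinates.
Crem, chr17:58985240-58985539, plus strand: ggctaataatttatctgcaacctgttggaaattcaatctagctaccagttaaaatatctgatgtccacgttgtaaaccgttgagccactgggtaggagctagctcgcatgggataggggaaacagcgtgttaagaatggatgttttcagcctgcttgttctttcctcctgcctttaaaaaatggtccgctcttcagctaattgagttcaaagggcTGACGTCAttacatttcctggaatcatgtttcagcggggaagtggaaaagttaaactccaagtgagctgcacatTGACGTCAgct
Sik1, chr20:9958597-9958896, minus strand: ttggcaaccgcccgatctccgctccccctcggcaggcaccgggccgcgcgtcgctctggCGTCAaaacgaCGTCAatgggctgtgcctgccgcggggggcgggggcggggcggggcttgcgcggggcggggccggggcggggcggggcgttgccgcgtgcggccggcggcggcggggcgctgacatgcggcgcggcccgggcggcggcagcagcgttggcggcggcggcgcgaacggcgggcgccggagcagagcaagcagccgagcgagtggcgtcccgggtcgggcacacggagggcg
Nr4a1, chr7:134259888-134260187, plus strand: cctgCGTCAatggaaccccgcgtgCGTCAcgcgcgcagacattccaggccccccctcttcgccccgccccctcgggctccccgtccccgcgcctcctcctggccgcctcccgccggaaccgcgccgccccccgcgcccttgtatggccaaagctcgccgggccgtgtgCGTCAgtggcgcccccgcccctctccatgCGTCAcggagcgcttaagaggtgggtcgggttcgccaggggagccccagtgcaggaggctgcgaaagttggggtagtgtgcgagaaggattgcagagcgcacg
Vgf, chr12:25276971-25277270, minus strand: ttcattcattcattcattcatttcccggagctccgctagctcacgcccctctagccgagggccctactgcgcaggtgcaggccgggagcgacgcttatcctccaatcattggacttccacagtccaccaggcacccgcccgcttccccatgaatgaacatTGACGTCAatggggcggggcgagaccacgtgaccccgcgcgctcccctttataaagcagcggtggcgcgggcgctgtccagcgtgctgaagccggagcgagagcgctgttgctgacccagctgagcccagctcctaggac
Cartpt, chr2:32991186-32991485, minus strand: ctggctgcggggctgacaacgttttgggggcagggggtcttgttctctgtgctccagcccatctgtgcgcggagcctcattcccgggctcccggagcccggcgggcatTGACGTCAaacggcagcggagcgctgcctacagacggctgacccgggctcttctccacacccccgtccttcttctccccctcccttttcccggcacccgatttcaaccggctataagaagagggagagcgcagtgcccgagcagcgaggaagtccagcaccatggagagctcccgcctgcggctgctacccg
Counted from the start site, the Crem elements begin at −35 and 40, the Vgf element at −90 and the Cartpt element at −142. Sik1 holds half-sites at −191 and −180 and Nr4a1 holds them at −246, −226, −82 and −53. Another Crem start and a start of Ppargc1a also held a full element, at −56 and −181.

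Several genes for secreted peptides rose. Of 24 neuropeptide and gut hormone genes 9 were expressed highly enough to test, and 7 of these rose (median change 2.93). Since a gene absent from CON can pass the filter through its treated level, neither the 7 nor the median describes the whole list. Cck, cholecystokinin, rose from 24.1 and 25.5 to 530 and 535 TPM (4.37 ± 0.05), a 21.5-fold higher mean. Tac1, the precursor of substance P, rose from 7.62 and 8.40 to 208 and 236 TPM (4.63 ± 0.09). Nmu, neuromedin U, was at 0.123 and 0.452 TPM in CON and at 58.6 and 60.9 TPM after FSK (5.57 ± 0.10). Hormones normally made by other islet or gut endocrine cells rose too, as Gcg, the glucagon and GLP-1 precursor, went from 165 and 169 to 1225 and 1345 TPM (2.93 ± 0.07). Cartpt (3.46 ± 0.07), Gast, gastrin (2.48 ± 0.06), and Penk, proenkephalin (1.66 ± 0.12), rose as well. Of the 4 alpha cell markers tested, Gcg rose and 2 fell, or 1 in each direction after centring, and Irx2 was listed at 0 TPM.

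Within the insulin granule, cargo genes moved in both directions. Of 16 genes tested 6 rose and 3 fell (median change 0.01), beside 8.77% and 34.8% of all genes, or 7 and 1 after centring. Ins1 rose from 33716 and 34501 to 65627 and 67834 TPM (0.97 ± 0.05), whereas Ins2 was at 2885 and 2991 TPM in CON and 1980 and 2112 TPM at 8 h FSK (−0.52 ± 0.06, below the fold minimum). The products of Ins1 and Ins2 are near copies, and reads that fit both could have been split between them. Vgf, a granin-like precursor, rose from 360 and 367 to 2318 and 2552 TPM (2.74 ± 0.07), and Pam, the enzyme that amidates peptide hormones such as cholecystokinin and gastrin, rose from 195 and 207 to 1102 and 1196 TPM (2.51 ± 0.05). Scg3, secretogranin III, rose by 1.01 ± 0.05, while its relative Scg2 fell from 575 and 581 to 194 and 203 TPM (−1.54 ± 0.04). The other falls, Slc30a8, the granule zinc transporter (−0.85 ± 0.05), and Ptprn2 (−0.68 ± 0.04), were not called after centring on the median gene.

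Genes for the proteins that release granules moved in both directions as well. Of 25 exocytosis genes 7 rose and 6 fell (median change −0.09), beside 8.77% and 34.8% of all genes, or 10 and 4 after centring. Rph3al, the Rab3 effector Noc2, fell from 204 and 209 to 22.9 and 23.1 TPM (−3.11 ± 0.05), and Cadps, a priming factor of dense-core vesicles, fell from 32.4 and 34.7 to 3.24 and 3.42 TPM (−2.99 ± 0.08). Cplx2, complexin 2 (−2.52 ± 0.07), and Rab3b (−1.89 ± 0.06) fell with them. By contrast, Syt4, a synaptotagmin, rose from 34.1 and 35.6 to 130 and 150 TPM (1.97 ± 0.07), and the SNARE gene Snap25 rose from 153 and 157 to 405 and 432 TPM (1.42 ± 0.05). These 6 genes were named for their large changes, so the lack of overlap between their groups follows from the choice.

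Channel genes included many falls. Of 30 genes for KATP, calcium and potassium channels and calcium pumps 5 rose and 19 fell, beside 8.77% and 34.8% of all genes. The median change was −0.85, beside −0.34 over all genes, and 13 of the falls were called after centring. Cacna1a, the pore of P/Q-type calcium channels, fell from 46.2 and 47.8 to 8.41 and 8.75 TPM (−2.32 ± 0.07). Kcnb2, a delayed rectifier potassium channel, fell by 2.04 ± 0.08 and Cacnb3, a calcium channel beta subunit, by 1.56 ± 0.04. The 2 subunits of the KATP channel, Kcnj11 (−0.92 ± 0.05) and Abcc8 (−0.68 ± 0.05), were lower as deposited but were not called after centring on the median gene. The 5 rises were the BK channel gene Kcnma1 (1.35 ± 0.08), the endoplasmic reticulum (ER) calcium pump gene Atp2a2, from 345 and 369 to 749 and 838 TPM (1.15 ± 0.05), Kcnn1 (0.99 ± 0.08), the IP3 receptor gene Itpr3 (0.71 ± 0.06) and Trpm5 (0.71 ± 0.10).

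Transcription factors of beta cell identity were called at about the rate of all genes (8.77% higher and 34.8% lower). Of 17 tested, 2 rose and 7 fell (median change −0.56), or 4 and 5 after centring. Neurod1, which activates the insulin gene, fell from 214 and 234 to 58.8 and 64.8 TPM (−1.84 ± 0.05), Rfx6 fell by 1.69 ± 0.07, Rfx3 by 1.31 ± 0.09 and Nkx6-1 by 1.3 ± 0.07, and these 4 falls were among the 5 called after centring. Pdx1, the main insulin gene activator, was at 291 and 292 TPM in CON and 194 and 203 TPM at 8 h FSK, and its change of −0.56 ± 0.04 did not reach the fold minimum, although it did with ERCC scaling. The 2 rises were the pioneer factor gene Foxa1, from 2.76 and 3.33 to 9.04 and 10.3 TPM (1.40 ± 0.13), and Etv1 (1.21 ± 0.05). Falls of several activators thus stood beside the rise of Ins1 in the same libraries.

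A list of receptor and signalling genes, early and delayed, had more rises than falls. The list holds 28 tested genes, of which 16 rose and 5 fell (median change 0.92). At 1 h of FSK 11 of them were already higher than in CON and 1 was lower. Between 1 h and 8 h of FSK 10 were higher at 8 h and 8 lower. Kdr, the VEGF receptor 2, went from 0.399 and 0.410 to 26.8 and 28.4 TPM (4.35 ± 0.09). Igf1r, the IGF-1 receptor, rose from 17.1 and 19.5 to 152 and 161 TPM (3.03 ± 0.08), and Irs2, the adaptor that carries insulin and IGF-1 receptor signals, rose from 36.8 and 39.2 to 166 and 171 TPM (2.12 ± 0.05). Egr4 (2.64 ± 0.12) and the MAP kinase phosphatase gene Dusp4 (2.05 ± 0.10) rose too, while the receptor kinase gene Grk3 fell by 1.60 ± 0.09. The other falls were Scg2, which the list shares with the granule genes, Arrb2 (−0.80 ± 0.05), Rgs16 (−0.66 ± 0.06) and Grk5 (−0.58 ± 0.07), of which the last 3 were not called after centring. In the TGF-beta family and its targets 7 of 15 genes rose and 3 fell (median change 0.01), or 7 and 1 after centring. Beside Fst, the ligand gene Tgfb2 rose from 1.02 and 1.31 to 30.0 and 34.0 TPM (3.93 ± 0.11). The inhibitors of DNA binding differed: Id4 rose by 2.43 ± 0.06, Id3 by 0.77 ± 0.09 and Id1 by 0.75 ± 0.10, and Id2 fell from 15.5 and 16.4 to 4.14 and 5.44 TPM (−1.56 ± 0.14). The receptor gene Tgfbr1 (−0.86 ± 0.08) and the inhibitor gene Smad7 (−0.60 ± 0.10) fell as deposited but were not called after centring.

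Circadian genes moved in both directions. Of 15 tested 5 rose and 5 fell (median change −0.10), beside 8.77% and 34.8% of all genes, or 7 and 5 after centring. The rises were the repressor genes Cry2, from 44.5 and 46.4 to 216 and 218 TPM (2.23 ± 0.05), Per1 (1.13 ± 0.06) and Per2 (0.71 ± 0.09), the bZIP repressor gene Nfil3 (1.96 ± 0.05) and the activator gene Arntl, which encodes BMAL1 (1.14 ± 0.06). The falls were Nr1d1, from 17.6 and 19.1 to 1.07 and 1.41 TPM (−3.11 ± 0.08), its relative Nr1d2 (−2.80 ± 0.07), the PAR bZIP activator genes Tef (−2.87 ± 0.06) and Dbp (−2.0 ± 0.07), and Per3 (−2.36 ± 0.10). Nr1d1 and Nr1d2 encode the REV-ERB repressors of Arntl. All 10 genes were called under each of the 3 scalings.

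Most genes of the ER folding list and many of the traffic list rose. In the ER folding list 19 of 24 genes rose and 2 fell (median change 1.24). Hspa5, the ER chaperone BiP, rose from 1041 and 1051 to 4403 and 4794 TPM (2.13 ± 0.05, 4.40-fold). Creld2 (2.33 ± 0.04), the co-chaperone gene Dnajc3 (2.18 ± 0.06) and Hyou1 (2.00 ± 0.05) rose by similar factors. The falls were Sil1, the nucleotide exchange factor of BiP (−1.37 ± 0.06), and Ero1b, an oxidase of disulfide formation (−1.0 ± 0.05). Among 36 genes of ER translocation and vesicle traffic 17 rose and 0 fell at the call used here (median change 0.58), and 31 rose after centring on the median gene. Sec23b, a coat protein of vesicles that leave the ER, rose from 110 and 118 to 442 and 446 TPM (1.96 ± 0.05), and the translocon gene Sec61a1 rose from 276 and 290 to 689 and 736 TPM (1.33 ± 0.04). Surf4, an ER cargo receptor (1.33 ± 0.06), and Ssr1, a translocon-associated subunit (1.23 ± 0.05), rose with them.

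Genes of ER stress and targets of ATF4 made up a further list, which also holds genes of the XBP1 and ATF6 arms and of ER-associated degradation. Of its 27 genes tested 23 rose and 0 fell (median change 1.23). Atf4 itself went from 271 and 277 to 949 and 967 TPM (1.80 ± 0.05), and Ddit3, which encodes CHOP, from 45.0 and 45.9 to 188 and 193 TPM (2.04 ± 0.06). Trib3, a pseudokinase gene induced by ATF4 and CHOP, rose from 1.60 and 2.30 to 33.4 and 38.1 TPM (3.65 ± 0.09), Slc7a11, the cystine transporter, from 0.128 and 0.133 to 11.1 and 11.1 TPM (3.42 ± 0.09), and Chac1, a glutathione-degrading enzyme, from 2.65 and 3.04 to 29.1 and 31.6 TPM (3.03 ± 0.09). Herpud1, a factor of ER-associated degradation, rose by 1.53 ± 0.05, and Xbp1 rose from 162 and 170 to 444 and 445 TPM (1.41 ± 0.04). No CON value reached a treated one in these genes, which is a description, since called genes with large changes were named. Of 13 heat shock genes, which include mitochondrial chaperones, 0 were called higher and 1, Hspa12a (−2.71 ± 0.07), lower, and 3 were called higher after centring.

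**Figure D2:**
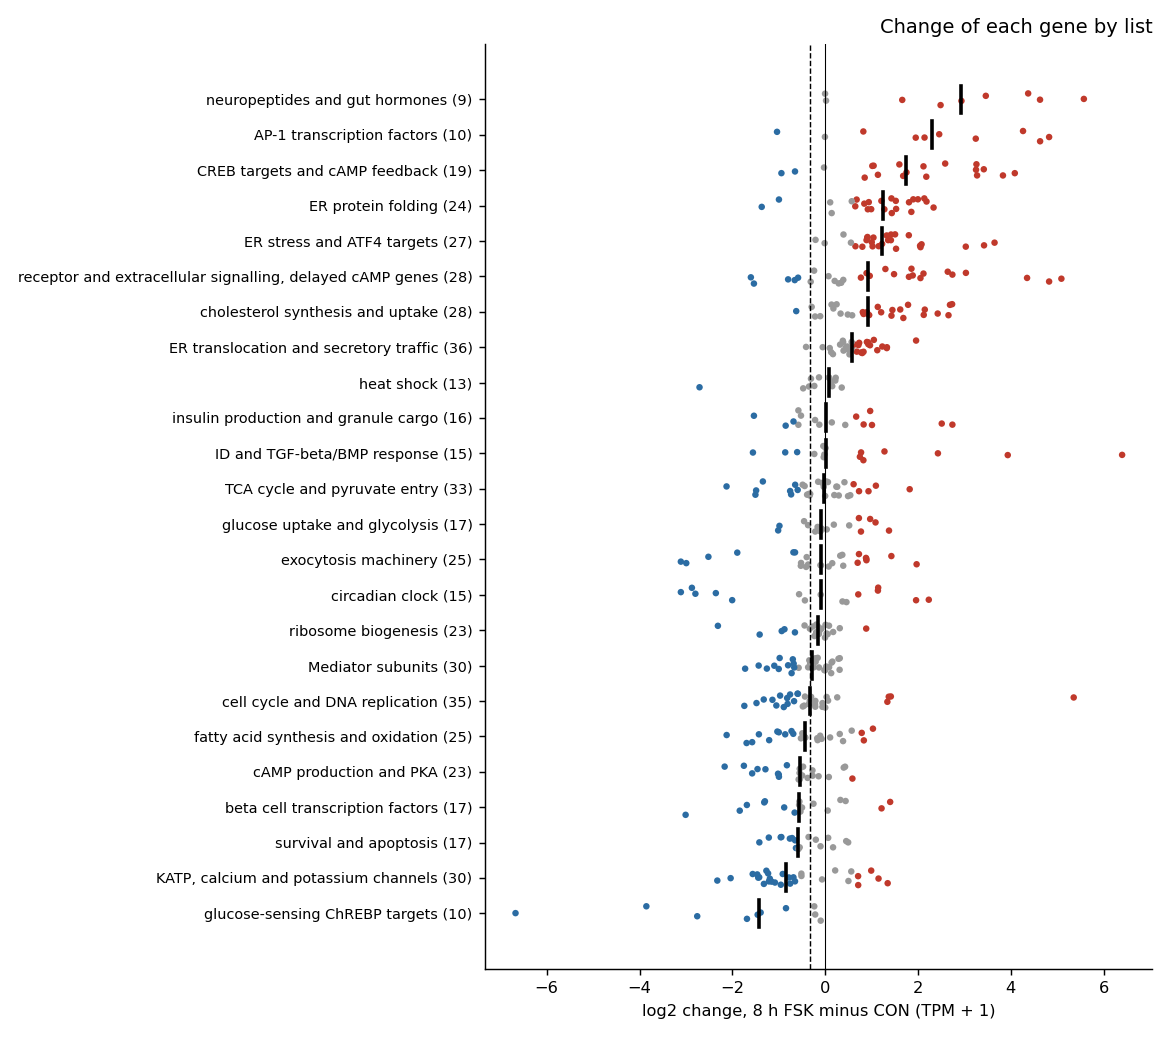
Log2 change between 8 h FSK and CON on the log2(TPM + 1) scale for each tested gene of the 24 lists, with the number tested in brackets. Red points were called higher, blue lower and grey neither, black bars are list medians, the dashed line is the median of all genes (−0.34) and the solid line is 0, and the median is −1.42 for ChREBP targets and 1.75 for the CREB list.

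Targets of ChREBP, the factor that raises transcription in response to glucose, formed the list with the lowest median. Of 10 genes 7 fell and 0 rose (median change −1.42), beside 34.8% and 8.77% of all genes, or 6 and 0 after centring. Besides Txnip and Arrdc4, Pklr, the liver-type pyruvate kinase, fell from 220 and 225 to 30.2 and 33.8 TPM (−2.76 ± 0.04). Mlxipl, the gene of ChREBP itself, fell from 272 and 293 to 76.9 and 98.5 TPM (−1.69 ± 0.08), Gpd1, glycerol-3-phosphate dehydrogenase, from 123 and 130 to 45.3 and 45.4 TPM (−1.46 ± 0.06), and Klf10 by 1.39 ± 0.06. Glycolysis and glucose uptake genes did not share this pattern, as 5 of 17 rose and 2 fell (median change −0.08), or 6 and 2 after centring. Aldoa, aldolase A, rose from 851 and 881 to 2214 and 2279 TPM (1.37 ± 0.05), and Slc2a1, the glucose transporter GLUT1, from 33.3 and 33.6 to 64.6 and 80.3 TPM (1.08 ± 0.07). Ldhb (0.97 ± 0.04), Pfkp (0.77 ± 0.06) and Pgam1 (0.73 ± 0.03) rose, while the phosphofructokinase gene Pfkm (−0.99 ± 0.03) and Pfkfb3 (−1.01 ± 0.10) fell.

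Genes of pyruvate entry and the citrate cycle, a list that includes cytosolic enzymes such as Mdh1, moved in both directions. Of 33 tested 5 rose and 8 fell (median change −0.03), beside 8.77% and 34.8% of all genes, but 12 rose and 4 fell after centring. Sucla2, a subunit of the ATP-forming succinyl-CoA ligase, rose from 62.1 and 62.4 to 222 and 223 TPM (1.82 ± 0.05), while Suclg2, the subunit of the GTP-forming enzyme, fell from 96.7 and 103 to 33.7 and 35.3 TPM (−1.5 ± 0.06). Pdha1, the pyruvate dehydrogenase subunit, rose by 1.09 ± 0.05, and the kinase genes that inhibit it fell, Pdk2 from 52.3 and 56.3 to 11.3 and 12.1 TPM (−2.13 ± 0.06) and Pdk1 by 1.34 ± 0.05. Idh3a (0.73 ± 0.04) and Mdh1 (0.61 ± 0.03) rose, the latter not with ERCC scaling, and Idh2 fell by 1.49 ± 0.03.

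Cholesterol synthesis and uptake genes rose in most cases. Of 28 genes 18 rose and 1 fell (median change 0.92), and 22 rose after centring. Hmgcs1, which commits acetyl units to the pathway, rose from 78.6 and 80.8 to 517 and 520 TPM (2.69 ± 0.05, 6.51-fold), and Msmo1, a late demethylase, from 126 and 128 to 822 and 885 TPM (2.73 ± 0.05). Insig1, the sterol sensor that holds SREBP in the ER, rose by 2.66 ± 0.04 and the isomerase gene Idi1 by 2.42 ± 0.06. Srebf2, the factor that drives these genes, was at 93.7 and 98.5 TPM in CON and 133 and 136 TPM after FSK and did not reach the fold minimum (0.49 ± 0.05), although it did after centring. Scap, the SREBP escort, fell by 0.62 ± 0.05, a call that was lost after centring, with edgeR and DESeq2, and without replicate 1 of CON or replicate 2 of 8 h FSK. Of 25 fatty acid genes 3 rose and 10 fell (median change −0.44), close to the shares of all genes, or 6 and 7 after centring. The rises were Acsl4 (1.03 ± 0.06), Acsl5 (0.83 ± 0.04) and Scd2 (0.79 ± 0.05). The falls included the oxidation genes Acaa2, from 47.5 and 49.9 to 10.3 and 10.5 TPM (−2.12 ± 0.05), Cpt2 (−1.69 ± 0.05), Acads (−1.57 ± 0.05) and Cpt1a (−1.21 ± 0.07), and Acaca, the first enzyme of fatty acid synthesis (−1.43 ± 0.07).

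Ccnd1 belongs to a list of 35 cell cycle and replication genes, of which 4 rose and 13 fell (median change −0.33), about the shares of all genes, or 5 and 5 after centring. The other rises were Ccnd3, from 70.7 and 75.2 to 185 and 186 TPM (1.34 ± 0.04), and the inhibitor genes Cdkn1b (1.41 ± 0.04) and Cdkn1a (1.37 ± 0.06). Among the falls were Ung (−1.74 ± 0.06), the cyclin E gene Ccne1 (−1.48 ± 0.05) and E2f1 (−1.32 ± 0.07), which with Cdk2 (−1.14 ± 0.05) and Mcm7 (−1.05 ± 0.04) were the falls called after centring. Of 17 survival and apoptosis genes 8 fell and 0 rose (median change −0.58), beside 34.8% and 8.77% of all genes. After centring 2 genes rose, and only 2 of the falls were still called. Those named here were the pro-apoptotic genes Bok (−1.42 ± 0.06) and Bbc3 (−1.22 ± 0.10), which kept their calls, and Bax (−0.96 ± 0.05) and the protective Bcl2l1 (−0.95 ± 0.04), which did not. Of 23 ribosome biogenesis genes 1, Bop1 (0.88 ± 0.04), rose and 5 fell (median change −0.16), and Myc, which drives growth, fell from 69.4 and 70.5 to 12.9 and 13.7 TPM (−2.31 ± 0.05). The other falls were Ubtf, a factor of RNA polymerase I (−1.41 ± 0.04), Polr1a (−0.94 ± 0.07), Wdr12 (−0.88 ± 0.06) and Nop16 (−0.65 ± 0.04), of which the last 3 were not called after centring. Of 30 Mediator subunit genes 11 fell and 0 rose (median change −0.29, close to that of all genes), or 6 and 3 after centring, with Cdk19 the largest fall (−1.73 ± 0.06). Med14, the subunit at the centre of the study, was at 20.3 and 21.5 TPM in CON and 25.5 and 25.9 TPM at 8 h FSK and was not called as deposited, although it was called higher after centring (0.68) and with edgeR (0.62) and DESeq2 (0.65).

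The position of 8 h in the time course was read from direct contrasts with 1 h and 16 h of FSK, which do not use CON. Against 1 h, 990 genes (9.64%) were higher at 8 h and 2911 (28.3%) lower, or 1802 and 1918 after centring. Against 8 h, 1434 genes (14%) were higher at 16 h and 372 (3.62%) lower. That second split depended on the scale, with 881 higher and 608 lower after centring. ERCC scaling gave 3912 higher and 112 lower, under which the median gene moved by 0.47. ERCC RNA took 0.6914 and 0.7362% of fragments at 16 h, less than in any library of CON or 8 h FSK.

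Several early genes were lower at 8 h than at 1 h. Fosb was at 253 and 262 TPM at 1 h, 23.5 and 24.2 at 8 h and 3.58 and 3.87 at 16 h (8 h minus 1 h, −3.38 ± 0.08 and 16 h minus 8 h, −2.39 ± 0.08). Nr4a1 was at 1578 and 1671 TPM at 1 h, 176 and 179 at 8 h and 68.1 and 70.9 at 16 h. Sik1 fell less steeply, from 183 and 201 TPM at 1 h to 29.2 and 30.6 at 16 h. Dusp1, a MAP kinase phosphatase gene, went from 460 and 465 TPM at 1 h to 33.1 and 35.8 at 8 h (−3.71 ± 0.05), 1.01 ± 0.05 above CON. A second set was higher at 8 h than at 1 h or 16 h. Fst was at 31.9 and 32.3 TPM at 1 h and 33.9 and 35.0 at 16 h, below its 8 h values by 1.80 ± 0.09 and 1.70 ± 0.09. Ccnd1 (3.45 ± 0.08 above 1 h), Kdr (3.16 ± 0.09) and Creld2 (2.36 ± 0.04) had the same order, and their 16 h values were lower than at 8 h by 1.31 ± 0.08, 2.33 ± 0.09 and 1.53 ± 0.04. Hspa5 was at 1158 and 1208 TPM at 1 h and 1828 and 1885 at 16 h (16 h minus 8 h, −1.31 ± 0.05). These differences from 16 h were called under each of the 3 scalings.

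Other changes were held or went further. Plat was at 63.4 and 68.1 TPM at 16 h and Txnip at 1.92 and 2.33, differing from 8 h by less than the SE (−0.04 ± 0.09 and −0.02 ± 0.08). Txnip had already dropped to 19.5 and 19.7 TPM at 1 h. Trib3 continued to 90.9 and 95.9 TPM (1.36 ± 0.09 above 8 h) and Chac1 to 72.0 and 73.7 TPM (1.24 ± 0.09). Several falls were partly recovered: Nr1d1 stood at 10.8 and 11.8 TPM at 16 h (2.45 ± 0.08 above 8 h), Rph3al at 49.7 and 52.8 (1.12 ± 0.05), Glb1l2 at 13.49 and 13.98 (1.91 ± 0.07), Oxr1 at 29.1 and 30.3 (1.2 ± 0.07) and Myc at 36.5 and 37.8 (1.42 ± 0.05). In none of these 5 genes did the 16 h values reach those of CON.

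**Figure D3:**
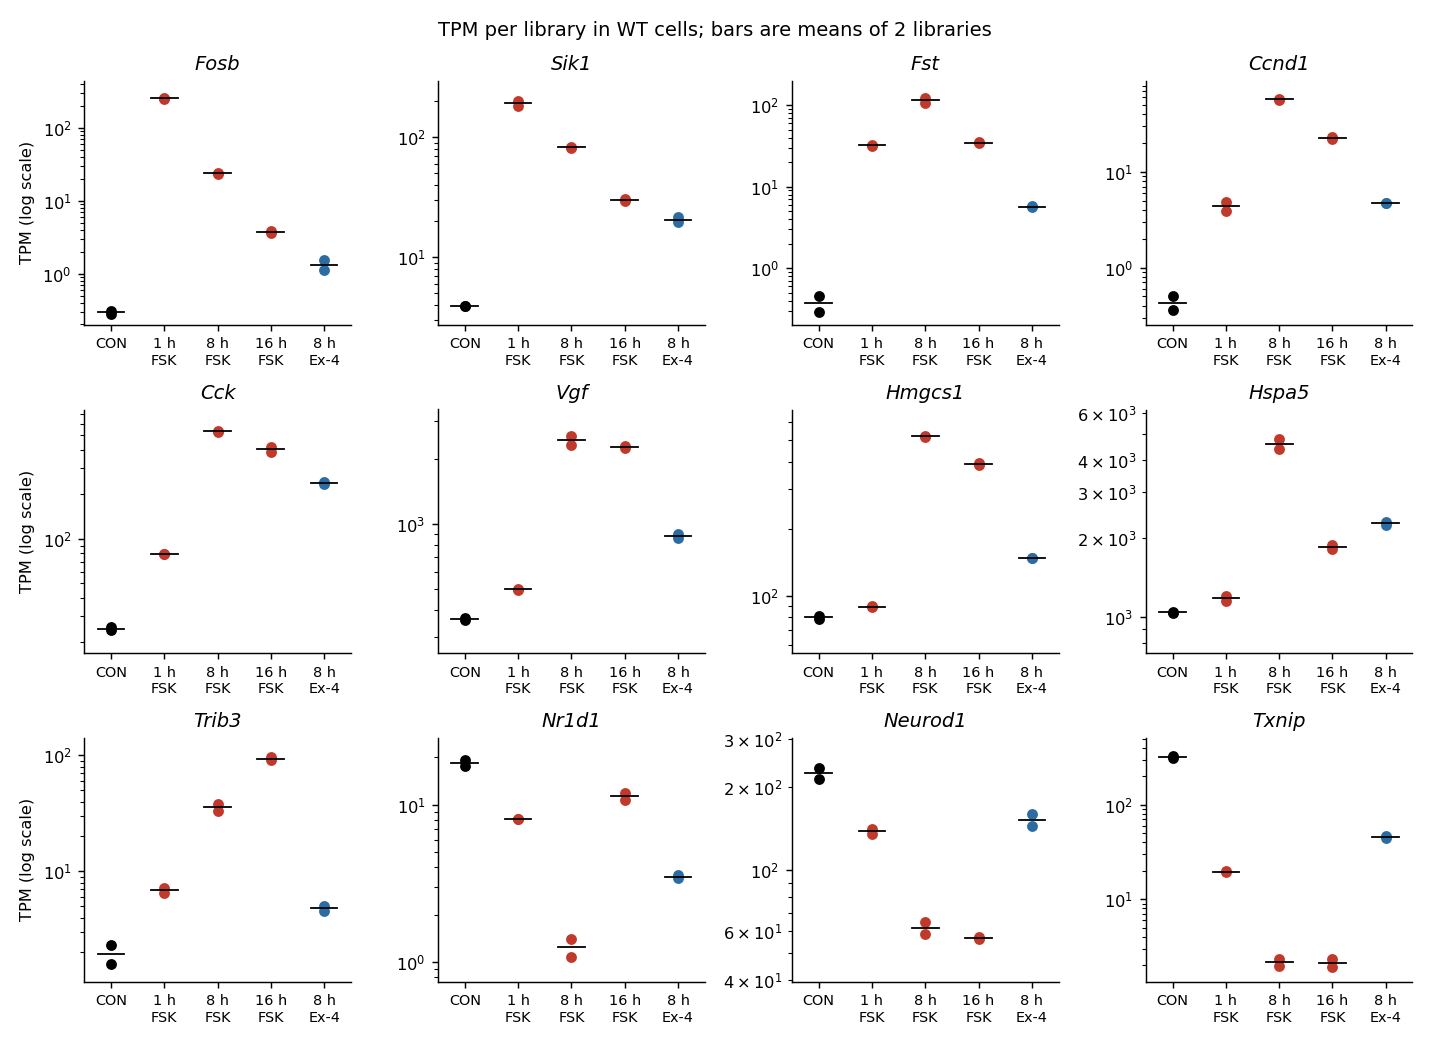
TPM (log scale) of 12 genes in each WT library of CON, 1 h, 8 h and 16 h FSK and 8 h Ex-4, with points for libraries and bars for the mean of 2. Fosb and Sik1 are highest at 1 h, Fst, Ccnd1 and Hspa5 at 8 h, Trib3 is highest at 16 h, and Txnip falls from above 312 TPM in CON to below 2.4 TPM at 8 h and 16 h of FSK.

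At the same 8 h, FSK was compared directly with Ex-4. The agents differ in kind and dose, so the contrast describes these 2 treatments and not the potency of a step. Relative to Ex-4, 490 genes (4.77%) were higher in FSK and 2396 (23.3%) lower, or 1058 and 1195 after centring and 338 and 3447 with ERCC scaling. The genes next named were chosen for their 8 h FSK change, which favours a gap to Ex-4, so their values are a description. Fst was at 5.63 and 5.75 TPM with Ex-4 and so stood lower than with FSK, Ccnd1 at 4.69 and 4.71 (3.36 ± 0.08), Fosb at 1.10 and 1.55 (3.42 ± 0.08) and Cck at 236 and 242 (1.15 ± 0.05). Txnip, at 45.0 and 47.3 TPM with Ex-4, was lower with FSK by 3.90 ± 0.08 on the log2 scale. Fosl1 was at 0.502 and 0.617 TPM with Ex-4 and near 29 TPM with FSK.

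The lists are given beside the 4.77% of all genes higher with FSK than with Ex-4 and the 23.3% lower, and no difference between lists was tested. Of the 27 ER stress and ATF4 genes 17 were higher with FSK than with Ex-4 and 0 lower, with Trib3 at 4.59 and 5.01 TPM (2.66 ± 0.09) and Chac1 at 4.87 and 4.89 TPM (2.41 ± 0.09) in Ex-4. Of the 28 cholesterol genes 16 were higher with FSK and 0 lower, with Hmgcs1 at 147 and 147 TPM in Ex-4 (1.81 ± 0.05). Of the 24 ER folding genes 12 were higher and 1, Sil1 (−1.13 ± 0.06), lower, and Hspa5 was at 2258 and 2316 TPM with Ex-4 (1.01 ± 0.05). Of the 36 genes of ER translocation and traffic 3, Sec23b (0.93 ± 0.05), Srp54a (0.65 ± 0.05) and Sec61a1 (0.61 ± 0.04), were higher, the last 2 not with ERCC scaling and Sec61a1 not without replicate 2 of 8 h FSK. Of the 17 beta cell factors 1, Foxa1 (1.25 ± 0.13), was higher and 8 lower, with Neurod1 at 145 and 160 TPM with Ex-4 (−1.29 ± 0.05). Some differences were smaller, though still several times their SE. Cartpt was at 69.3 and 71.1 TPM with Ex-4 and differed by 0.53 ± 0.07. Ins1, at 45098 and 47433 TPM, differed by 0.53 ± 0.05, and both were below the fold minimum as deposited. Centring moves every gene of this contrast by the same amount, the median gene from −0.23 to 0.04. Whether such genes reach the minimum thus depends on the scale. Pam remained higher with FSK by 0.82 ± 0.05.

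**Figure D4:**
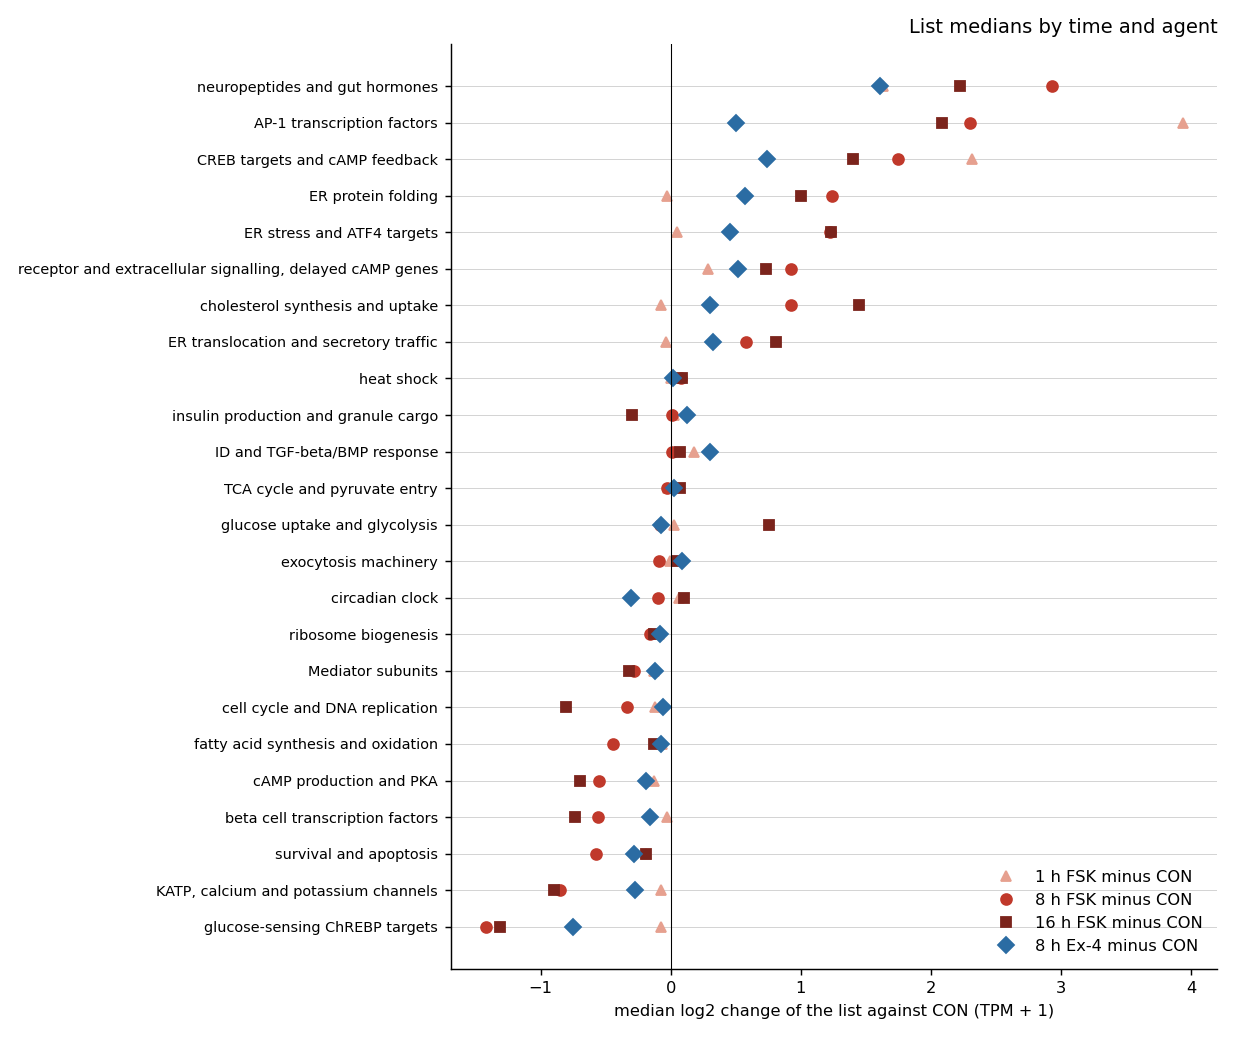
Median log2 change against CON on the log2(TPM + 1) scale for the 24 lists after 1 h, 8 h and 16 h of FSK and 8 h of Ex-4, which all share the 2 CON libraries. The AP-1 list is highest at 1 h (3.94, against 2.30 at 8 h), the cholesterol list at 16 h (1.45, against 0.92 at 8 h), and ER folding moves from −0.03 at 1 h to 1.24 at 8 h of FSK and 0.57 at 8 h of Ex-4.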

How the data were processed

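Sample titles gave the groups and replicate numbers. The authors aligned reads to rn6 plus ERCC sequences (STAR 2.5.3a) and quantified transcripts with HOMER 4.11.1. The deposited TPM are scaled to each library's sum, so large rises lower the other values. The deposited ERCC counts come from QoRTs 1.3.6 and cover 92 sequences. After ERCC entries were removed, the transcript of highest average TPM stood for its symbol (17455 symbols from 19131 transcripts). The 10275 symbols that averaged 1 TPM or more across the 28 libraries were fitted as log2(TPM + 1) with limma 3.58.1 (trend, R 4.3.3), using 14 group means, 14 residual degrees of freedom and two-sided tests. This scale understates changes of low genes. Multiplying TPM by length and scaling to the ERCC counts gave back whole reads (tolerance 0.05 reads) in 100% of 105446 low values, against 20.1% by chance. Halved to fragments, these served edgeR 4.0.16 and DESeq2 1.42.0 as alternatives. Other alternatives were scalings, filters, the pseudocount, a replicate block and leaving out libraries. Replicates differed beyond counting noise (chi-square per degree of freedom 4.61 in CON and 7.35 at 8 h FSK). The fit was tested on simulated data.

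Named genes were the 12 largest rises and 12 largest falls (average of 10 TPM or more, called alike in all 3 scalings) and up to 6 members of a list. Members beyond 6, and marker genes, were chosen after their values were seen. The members and lists were chosen with earlier results of these data known. Promoter sequences are from RefSeq. A few members of the lists count in their totals but are not reported here by name.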

Additional observations from a re-analysis of the deposited data

Results flagged for a closer look

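The values here differ between groups by a direct test in the same limma fit by the same call, on the log2(TPM + 1) scale. From 8 h to 16 h of FSK, 1434 genes were higher and 372 lower, and from 1 h to 8 h 990 were higher and 2911 lower. The 24 genes named were chosen for their 8 h change against CON, and the same 8 h libraries enter these contrasts, which favours values nearer CON at the other times, so the list is a description. Values were lower at 16 h than at 8 h for Fst (−1.70), Gprc5a (−0.81), Ccnd1 (−1.31), Sv2c (−1.04), Fosl2 (−0.68), Tac1 (−1.07), Fosb (−2.39), Mest (−0.88), Sik1 (−1.43) and Cebpd (−0.99). With ERCC scaling Gprc5a, Fosl2 and Mest were not called. Of the falls, Pgm5 (0.67), Crp (0.61), Glb1l2 (1.91), Psd (0.64) and Oxr1 (1.2) were higher at 16 h than at 8 h, of which Pgm5, Crp and Psd were not called after centring on the median gene.

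The same holds for the contrast of 8 h with 1 h. Values at 8 h exceeded those at 1 h for Fst (1.80), Gprc5a (4.22), Ccnd1 (3.45), Plat (4.54), Sv2c (4.70), Tac1 (1.28), Cck (2.74) and Mest (1.26), and were lower for Fosl2 (−2.24), Fosb (−3.38) and Sik1 (−1.21). Of the falls, values at 8 h were below those at 1 h for Txnip (−2.71), Phkg1 (−4.08), Pgm5 (−4.22), Crp (−3.82), Arrdc4 (−3.30), Glb1l2 (−3.45), Dmrta1 (−2.41), Efnb3 (−3.51), Dpysl3 (−3.49), Psd (−3.24), Adora2b (−2.50) and Oxr1 (−3.13).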

How the results depend on the processing

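The 24 genes of the naming rule kept their direction and call against CON under every alternative. For centring and ERCC scaling the rule itself required this. The count of genes higher at 8 h FSK than in CON was 901 and became 1930 after centring on the median gene, 1719 with edgeR, 1846 with DESeq2 and 2197 without a fold minimum, and the count lower was 3579 and became 1848 after centring and 6480 without a fold minimum. Against 1 h the higher count (990) became 1802, 1686, 1761 and 2826 in the same 4 settings, and the lower count (2911) 1918 after centring and 5498 without a fold minimum. From 8 h to 16 h the higher count (1434) became 3912 with ERCC scaling, 4274 with DESeq2 on ERCC size factors, 881 after centring and 4750 without a fold minimum. The lower count (372) became 112, 155, 608 and 2220, and 680 with edgeR and 675 with DESeq2. Against Ex-4 the higher count (490) became 1058 after centring, 1049 with edgeR, 1070 with DESeq2 and 1885 without a fold minimum, and the lower count (2396) became 3872 with DESeq2 on ERCC size factors, 1195 after centring and 6022 without a fold minimum. The cause was not tested, except that dropping the fold minimum admits smaller changes by construction.

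List medians below 0 changed sign in several lists. Medians close to 0 as deposited turned positive after centring for pyruvate and citrate cycle (0.36), glycolysis (0.31) and exocytosis genes (0.30). The same was seen for circadian (0.29) and NADH dehydrogenase genes (0.27). Lists with medians further from 0 as deposited follow. After centring, with edgeR and with DESeq2 in turn, Mediator subunits gave 0.10, 0.028 and 0.060, ribosome biogenesis 0.23, 0.16 and 0.19, cytosolic ribosomal proteins 0.23, 0.15 and 0.18, mitochondrial ribosomal proteins 0.085, 0.014 and 0.046, and Srsf splicing factors 0.10, 0.036 and 0.068. After centring and with DESeq2, cell cycle genes gave 0.057 and 0.018 and zinc finger genes 0.098 and 0.029.

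Leaving out each library in turn gave 871 to 933 genes higher and 3456 to 3730 lower than CON, 959 to 1041 and 2826 to 3011 against 1 h, 1356 to 1557 and 366 to 391 from 8 h to 16 h, and 484 to 513 and 2271 to 2571 against Ex-4. The lone library left in a group was assumed to vary like the other groups.

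The replicate numbers do not pair the libraries: same-numbered libraries of CON and 8 h FSK had deviations correlated by −0.046, and the other contrasts by 0.131 (1 h), −0.018 (16 h) and 0.033 (Ex-4). With a replicate block the counts were 901 and 3579 against CON, 990 and 2911 against 1 h, 1434 and 373 from 8 h to 16 h, and 490 and 2396 against Ex-4.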

Other observations

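Large families of housekeeping genes, picked by the prefix of their symbols, are given as deposited and after centring on the median gene, since their counts depended on the scale (8.77% of all genes were called higher and 34.8% lower as deposited). Of 79 cytosolic ribosomal protein genes 1, Rps18 (−0.62), was called lower and 0 higher, with a median change of −0.16 that turned positive after centring, when 2 were higher and 0 lower. Of 28 cytochrome c oxidase and ATP synthase genes 1, Atp5mc1, was called higher (1.28) and the median change was 0.07, with 10 higher after centring. The 43 NADH dehydrogenase genes include assembly factors, which share the prefix with the subunits. Of these 43 genes 1 was higher and 2 lower, or 7 and 0 after centring. The subunit gene Ndufa5 rose (1.01), and the assembly factor genes Ndufaf6 (−0.76) and Ndufaf3 (−0.59) fell. The 68 mitochondrial ribosomal protein genes included 12 called lower, among them Mrpl34 (−1.34), and 1 called higher, Mrpl47 (0.76), or 3 and 2 after centring.

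Of 48 proteasome genes 21 were called higher after centring (median change 0.54) and 3 as deposited, Psmc4 (0.64), Psma1 (0.63) and Psmc1 (0.62), while those lower included the immunoproteasome genes Psmb9 (−1.18) and Psmb10 (−1.0). Of 154 zinc finger genes 7 were higher, led by Zfp703 (1.71), and 49 lower, with a median change of −0.29, shares close to those of all genes, and 21 were higher and 15 lower after centring. Of 7 histone genes 1 was higher, Hist2h3c2 (0.59), and 2 lower, Hist1h2bq (−1.19) and Hist1h2ah (−0.62). The members named were chosen after their values were seen.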
